A study of Homo sapiens with 9 samples.

Results

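The cytokine genes described here are 10 members of signalling families that MDA-MB-231 cells, a human triple-negative breast adenocarcinoma line, transcribe: 8 secreted cytokines (IL1A, IL1B, IL6, IL11, LIF, IL24, CSF2 and CSF3) and the receptor subunits IL1RAP and IL6ST. They were taken by symbol from a table of 26475 gene rows, and all 10 were found and passed the filter on low counts. RNA was sequenced in 9 libraries, 3 in each of 3 groups. The knockdown cells stably carried the lentiviral vector pLKO.1 with a short hairpin RNA against ACSL4 (pLKO.1-shACSL4). The PRGL493 cells carried the empty pLKO.1 vector and were given PRGL493, an inhibitor of ACSL4. The control cells carried the empty vector with no treatment. ACSL4 is an enzyme that joins long polyunsaturated fatty acids such as arachidonic acid to coenzyme A. The labels name 1 hairpin construct, state neither the dose of PRGL493 nor how long or in which vehicle it was given, and the libraries of a group are described as batches of the same engineered cells. The p-values therefore measure the spread between these batches and do not extend to other hairpins or other lines.

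Interleukin 1 alpha (IL1A) and interleukin 1 beta (IL1B) bind the receptor IL1R1, which then recruits the co-receptor IL1RAP and starts NF-kB and MAP kinase signalling, a route known for inducing IL6, LIF, CSF2 and CSF3 in many cell types. IL6, IL11 and LIF each use their own receptor chain and share gp130, the product of IL6ST, which signals through JAK kinases and STAT3. IL24 belongs to the IL10 family and binds receptors built on IL20RB, whereas CSF2 (GM-CSF) and CSF3 (G-CSF) act on myeloid cells. Breast cancer cells are known to release several of these factors, IL6, IL11 and CSF2 among them.

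Levels are CPM, that is counts divided by a library's effective size, after TMM scaling, a scaling that evens out differences in library composition, and the values of replicates 1, 2 and 3 are given in that order. Library totals ran from 28673940 to 43027217 counts, and a member's count in a library from 211 (CSF3) to 35449 (IL6ST). ACSL4 RNA stood at 29.5, 23.7 and 27.6 CPM in knockdown cells, at 333, 350 and 360 CPM in PRGL493 cells and at 342, 339 and 366 CPM in control cells. The knockdown libraries thus match their label, and PRGL493 and control libraries overlapped (log2 fold change -0.01, SE 0.06, edgeR adjusted p = 0.95). The line's markers were present (VIM 1611 to 1811 CPM) and ESR1 and PGR did not exceed 0.03 and 0.15 CPM. The other listed genes held to be low in this line were measured too, KRT8 at 337 to 485 CPM, ERBB2 at 68.1 to 104 CPM, EPCAM at 8.70 to 30.5 CPM, GATA3 at 10.9 to 15.2 CPM and CDH1 at 0.42 to 2.04 CPM, so that list was not low as a whole. Of 10 macrophage and monocyte markers TYROBP was at 0 in all libraries and PTPRC did not exceed 0.08 CPM. The list's sum, mostly CD14, was 39.0 to 46.8 CPM in knockdown cells, 22.8 to 26.2 CPM in PRGL493 cells and 30.5 to 35.9 CPM in control cells. Lymphocyte markers summed to at most 0.36 CPM. Fibroblast markers summed to 35.7 to 39.2 CPM in knockdown cells, 24.4 to 27.3 CPM in PRGL493 cells and 41.7 to 47.2 CPM in control cells. Endothelial markers summed to 8.82 to 10.3, 7.61 to 9.12 and 11.6 to 12.8 CPM in the same groups. The part of other cell types in the results was not tested. Knockdown replicate 2 stood apart: relative to each gene's mean log2 level over the libraries, the median of short transcripts (at most 2341 bp) was 0.17 there and that of long transcripts -0.16, against -0.07 to 0.06 in the other libraries.

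Promoter sequence is shown for 4 of the cytokines, chosen with their changes under the treatments known. Their windows carry the letters of factors known to act on such genes, and any relation of these letters to the changes was not tested. The windows are RefSeq sequence of GRCh38.p14, 250 bases before to 50 bases after the annotated start, printed in the direction of the gene with matched motifs in capitals: AP-1 letters (TGANTCA) in IL1A and IL11, NF-kB letters (GGGA, then any 4 bases, then CC, on either strand) in IL6 and CSF2, and C/EBP letters (TTGCNNAA) in IL6.
IL6, chr7:22726950-22727249, plus strand: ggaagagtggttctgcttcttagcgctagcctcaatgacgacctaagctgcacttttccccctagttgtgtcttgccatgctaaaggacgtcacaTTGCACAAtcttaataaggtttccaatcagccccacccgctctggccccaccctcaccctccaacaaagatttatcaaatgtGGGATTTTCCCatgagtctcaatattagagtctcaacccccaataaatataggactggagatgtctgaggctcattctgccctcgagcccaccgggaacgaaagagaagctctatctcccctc
CSF2, chr5:132073539-132073838, plus strand: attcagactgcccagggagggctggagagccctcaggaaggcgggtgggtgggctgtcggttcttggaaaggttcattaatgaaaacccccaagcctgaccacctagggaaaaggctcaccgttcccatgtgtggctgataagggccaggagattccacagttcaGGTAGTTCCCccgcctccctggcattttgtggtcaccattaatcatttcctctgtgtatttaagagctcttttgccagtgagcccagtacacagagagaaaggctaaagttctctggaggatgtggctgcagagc
IL1A, chr2:112784351-112784650, minus strand: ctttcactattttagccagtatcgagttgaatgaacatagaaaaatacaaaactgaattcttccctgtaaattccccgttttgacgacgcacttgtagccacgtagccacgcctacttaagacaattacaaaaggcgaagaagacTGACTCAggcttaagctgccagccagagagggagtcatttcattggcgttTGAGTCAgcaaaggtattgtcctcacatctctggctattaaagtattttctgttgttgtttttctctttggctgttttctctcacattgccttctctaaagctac
IL11, chr19:55370414-55370713, minus strand: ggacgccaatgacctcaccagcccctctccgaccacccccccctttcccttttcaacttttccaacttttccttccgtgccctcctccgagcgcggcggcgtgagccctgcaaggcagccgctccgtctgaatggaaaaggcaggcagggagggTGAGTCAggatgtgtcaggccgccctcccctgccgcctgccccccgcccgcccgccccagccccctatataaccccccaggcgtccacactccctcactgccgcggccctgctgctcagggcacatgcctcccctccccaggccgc

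In the IL6 window the NF-kB letters lie at -73 to -64 from the start, overlapped by a match on the other strand at -72 to -63, and the C/EBP letters at -155 to -148. CSF2 has NF-kB letters on the reverse strand at -85 to -76. The AP-1 letters lie at -105 to -99 and at -55 to -49 in IL1A, and at -96 to -90 in IL11. IL1A has a second window with another annotated start, from which its AP-1 letters lie at -12 to -6 and at 39 to 45. A RefSeq window was at hand for 8 of the 10 genes. Among them AP-1 letters were found in 2 (7.71% of all 35116 windows of 300 bases), NF-kB letters in 4, with IL1RAP and IL6ST beside IL6 and CSF2 (25.6% of windows), and C/EBP letters in 2, IL6 and IL1B (10.5% of windows). A CRE (TGACGTCA, in 1.85% of windows) was in none of the 8. The TATAAA letters, searched in the direction of the gene, were in 1 member, in the second IL1A window at -239 to -234 (7.33% of windows). No searched motif was in the IL24 window. A match of letters is a description of these windows and not evidence that a factor binds there.

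Against control cells, 9 of the 10 genes were called lower in knockdown cells, where 15.3% of all tested genes were, and 9 of the 10 in PRGL493 cells, where 20.4% were, but by different amounts. In knockdown cells IL6 and IL1B fell furthest, to 37.7% and 44.8% of control, and IL24 did not pass the test. In PRGL493 cells IL24, IL1A, IL11 and CSF2 fell to between 20.7% and 31.0% of control, and IL6ST did not pass the test. Both comparisons use the same 3 control libraries, so their results are not independent of each other.

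**Figure D1:**
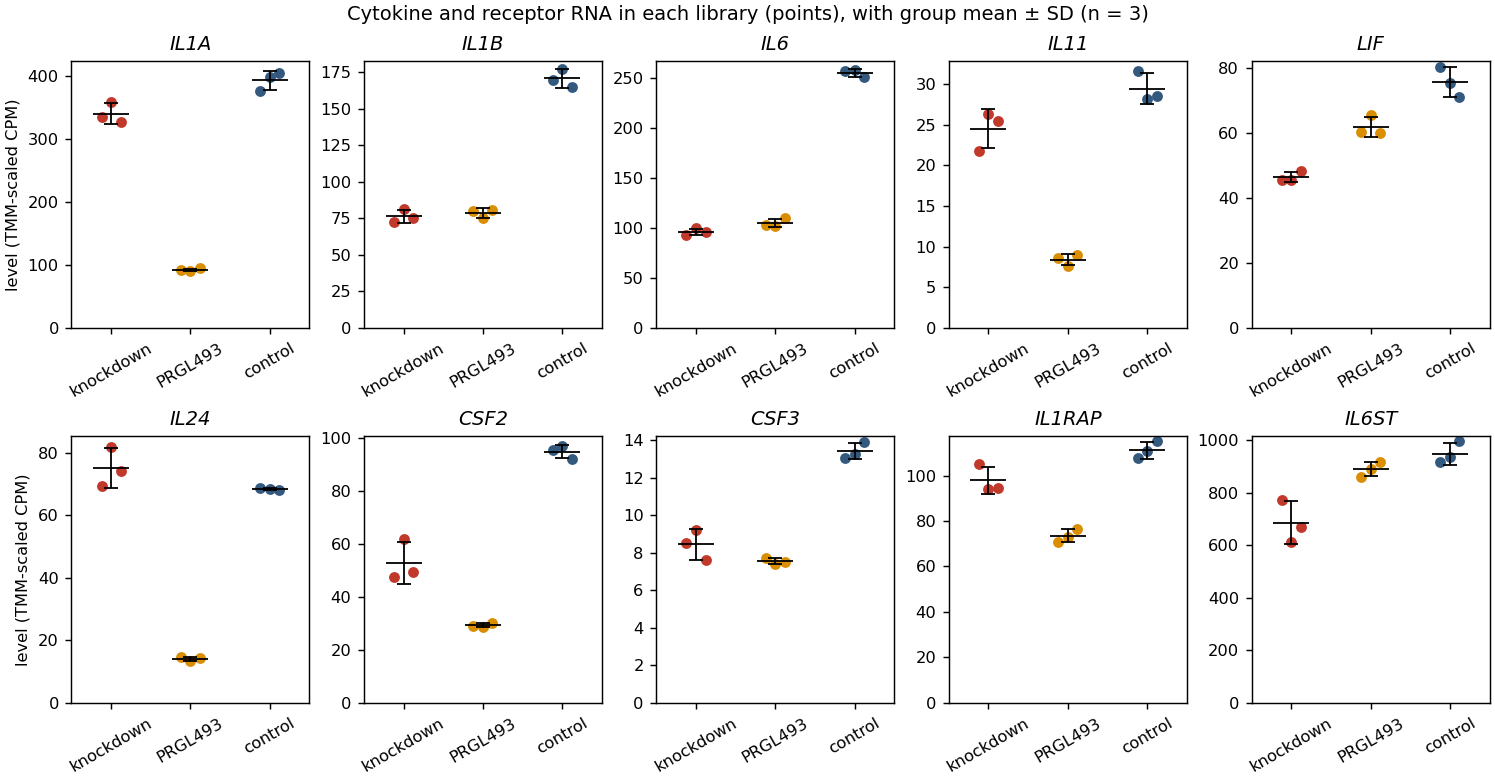
Level of each of the 10 genes in every library (y axes, TMM-scaled CPM, starting at 0), with points for libraries and bars for the mean ± SD of 3 libraries in knockdown, PRGL493 and control cells. IL1A, IL11 and IL24 are low in PRGL493 cells (means of 92.4, 8.39 and 14.1 CPM), while IL6 and IL1B are low in both treated groups.

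Among the IL1 genes, IL1A (chromosome 2, 112773915 to 112784590, minus strand, GRCh38) and IL1B (chromosome 2, 112829751 to 112836903, minus strand) are neighbours with unlike behaviour. IL1A, which can act from the cell surface as well as after release, stood at 336, 360 and 327 CPM in knockdown cells, at 91.9, 90.6 and 94.6 CPM in PRGL493 cells and at 377, 399 and 405 CPM in control cells. All PRGL493 libraries were far below all others, and the knockdown libraries lay just under the control libraries without overlap. The fall in knockdown was 0.21 on the log2 scale (log2 fold change -0.21, SE 0.05, edgeR adjusted p = 0.0053). In PRGL493 cells the log2 fold change was -2.09 (SE 0.05, edgeR adjusted p = 5.8e-14), a level 4.26-fold higher in control. Knockdown cells held 3.69-fold more IL1A RNA than PRGL493 cells (log2 difference 1.88, SE 0.05, edgeR adjusted p = 9.5e-14).

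IL1B, whose precursor protein is cut by caspase-1 before it can signal, stood at 72.8, 81.4 and 74.99 CPM in knockdown cells, at 80.2, 74.99 and 80.7 CPM in PRGL493 cells and at 169.9, 177 and 165 CPM in control cells. The treated groups overlapped each other and both lay well below control. Its log2 fold change was -1.16 in knockdown (SE 0.06, edgeR adjusted p = 1.4e-10) and -1.12 in PRGL493 cells (SE 0.06, edgeR adjusted p = 1.6e-10). Between knockdown and PRGL493 the log2 difference was -0.04, with a 95% interval from -0.16 to 0.08 (edgeR adjusted p = 0.56). It passed the test when the trend with transcript length was removed (log2 difference -0.15, edgeR adjusted p = 0.0071).

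IL1RAP (chromosome 3, 190514051 to 190659750, plus strand), the co-receptor, stood at 105, 94.2 and 94.4 CPM in knockdown cells, at 70.8, 73.0 and 76.5 CPM in PRGL493 cells and at 108, 111 and 115 CPM in control cells. The PRGL493 libraries were lowest and the knockdown libraries lay narrowly under control. The gene fell in PRGL493 cells (log2 fold change -0.60, SE 0.06, edgeR adjusted p = 5.5e-07) and in knockdown cells (log2 fold change -0.18, SE 0.06, edgeR adjusted p = 0.024). It was 0.41 higher on the log2 scale in knockdown than in PRGL493 cells (edgeR adjusted p = 1.8e-05). The knockdown call was lost when control replicate 2, control replicate 3 or knockdown replicate 3 was left out (edgeR adjusted p = 0.066, 0.11 and 0.098) and when the length trend was removed (edgeR adjusted p = 0.15). Part of its exons overlaps a long noncoding RNA on the same strand, AC108747.1. The largest exon overlap is 535 bp, and the merged exons of IL1RAP span 9945 bp. Only reads inside such an overlap cannot be assigned to 1 of these genes.

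Of the IL6-type cytokines, IL6 (chromosome 7, 22725884 to 22732002, plus strand), the family's founding member and an inducer of acute-phase responses, stood at 93.2, 99.5 and 95.4 CPM in knockdown cells, at 103, 102 and 109 CPM in PRGL493 cells and at 256, 257 and 250.3 CPM in control cells. Both treated groups were far below control, with the knockdown libraries slightly below the PRGL493 libraries and no overlap between them. The log2 fold change was -1.41 in knockdown (SE 0.05, edgeR adjusted p = 1.3e-12) and -1.28 in PRGL493 cells (SE 0.05, edgeR adjusted p = 6.0e-12), which makes control 2.65-fold and 2.44-fold higher. The log2 difference of -0.12 between knockdown and PRGL493 cells (95% interval -0.23 to -0.02) missed the threshold (edgeR adjusted p = 0.053). It passed without knockdown replicate 2 (log2 difference -0.15, edgeR adjusted p = 0.014) and with the length trend removed (log2 difference -0.22, edgeR adjusted p = 0.00029). IL6 exons overlap the antisense gene AC073072.1 and, over a short stretch, STEAP1B, and whether the counting used strand is not given in the sources used here.

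IL11 (chromosome 19, 55364389 to 55370463, minus strand), known for its part in platelet production and in bone metastasis of breast cancer cells, stood at 21.8, 26.2 and 25.4 CPM in knockdown cells, at 8.56, 7.62 and 8.98 CPM in PRGL493 cells and at 31.6, 28.2 and 28.5 CPM in control cells. PRGL493 libraries were far below the rest, and knockdown libraries were slightly below control. In PRGL493 cells IL11 fell by 1.81 on the log2 scale (SE 0.09, edgeR adjusted p = 1.4e-10). The fall of 0.27 in knockdown (log2 fold change -0.27, SE 0.08, edgeR adjusted p = 0.021) was lost without control replicate 1 (edgeR adjusted p = 0.11) or without knockdown replicate 1 (edgeR adjusted p = 0.071). Knockdown cells exceeded PRGL493 cells 2.91-fold (log2 difference 1.54, SE 0.09, edgeR adjusted p = 9.2e-10).

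LIF (chromosome 22, 30240447 to 30246851, minus strand), leukaemia inhibitory factor, known for keeping mouse embryonic stem cells undifferentiated, stood at 45.6, 45.6 and 48.2 CPM in knockdown cells, at 60.3, 65.4 and 59.8 CPM in PRGL493 cells and at 80.2, 75.2 and 70.9 CPM in control cells. Knockdown libraries were lowest, PRGL493 libraries lay between, and no group overlapped another. LIF fell by 0.70 on the log2 scale in knockdown (SE 0.06, edgeR adjusted p = 2.3e-07) and by 0.29 in PRGL493 cells (SE 0.06, edgeR adjusted p = 0.0011). Knockdown cells were 0.41 below PRGL493 cells (log2 difference -0.41, SE 0.06, edgeR adjusted p = 3.3e-05). Its exons overlap AC004264.1 and the antisense gene LIF-AS1.

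IL6ST (chromosome 5, 55935095 to 55994993, minus strand), the shared signalling receptor of this family, stood at 775, 612 and 672 CPM in knockdown cells, at 862, 892 and 917 CPM in PRGL493 cells and at 916, 936 and 997 CPM in control cells. Knockdown libraries were lowest and the most scattered, while the PRGL493 and control libraries overlapped narrowly. The receptor fell in knockdown (log2 fold change -0.47, SE 0.07, edgeR adjusted p = 0.00012), and the change was -0.39 on the log2 scale without knockdown replicate 2. In PRGL493 cells the log2 fold change was -0.09 (95% interval -0.24 to 0.05, edgeR adjusted p = 0.30), and it passed the test when only those libraries and the controls were fitted (log2 fold change -0.10, edgeR adjusted p = 0.037). Knockdown cells lay 0.38 below PRGL493 cells (log2 difference -0.38, edgeR adjusted p = 0.00031), and IL6ST exons overlap the antisense gene AC008914.1.

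IL24 (chromosome 1, 206897443 to 206904139, plus strand), an IL10-family cytokine studied for growth-suppressing effects on tumour cells, stood at 69.3, 81.8 and 74.2 CPM in knockdown cells, at 14.5, 13.4 and 14.4 CPM in PRGL493 cells and at 68.5, 68.2 and 67.9 CPM in control cells. The PRGL493 libraries were far below both other groups, and every knockdown library was above every control library, the lowest of them by under 1 CPM. It was the member with the largest fall in PRGL493 cells, at a log2 fold change of -2.27 (SE 0.07, edgeR adjusted p = 2.4e-13), so that control was 4.83-fold higher. In knockdown the log2 difference of 0.14 (95% interval 0.01 to 0.27) did not pass the test (edgeR adjusted p = 0.11). It did so without knockdown replicate 1 (log2 fold change 0.19, edgeR adjusted p = 0.018) and with scaling by library totals alone (log2 fold change 0.17, edgeR adjusted p = 0.041). Knockdown cells held 5.31-fold more IL24 RNA than PRGL493 cells (log2 difference 2.41, SE 0.07, edgeR adjusted p = 1.4e-13). The deposited IL24 counts were not whole numbers in any of the 9 libraries, so they are estimates. Among the other members only IL6ST had counts that were not whole, in 2 of the 9 libraries.

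The colony-stimulating factors CSF2 and CSF3 fell under both treatments. CSF2 (chromosome 5, 132073790 to 132076170, plus strand), which drives growth of granulocytes and macrophages, stood at 47.6, 62.1 and 49.3 CPM in knockdown cells, at 29.04, 28.8 and 30.3 CPM in PRGL493 cells and at 95.6, 97.0 and 92.2 CPM in control cells. The groups kept apart, with PRGL493 cells lowest and knockdown replicate 2 high among its group. CSF2 fell by 0.84 on the log2 scale in knockdown (SE 0.08, edgeR adjusted p = 8.2e-07), by 0.97 when knockdown replicate 2 was left out, and the log2 fold change was -1.69 in PRGL493 cells (SE 0.08, edgeR adjusted p = 1.6e-10). Knockdown cells were 1.80-fold above PRGL493 cells (log2 difference 0.85, edgeR adjusted p = 5.0e-07).

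CSF3 (chromosome 17, 40015361 to 40017813, plus strand), which drives neutrophil production, was the least abundant per length in knockdown and control cells, at 8.51, 9.22 and 7.59 CPM in knockdown cells, 7.71, 7.38 and 7.53 CPM in PRGL493 cells and 13.1, 13.3 and 13.9 CPM in control cells. Both treated groups lay below control and overlapped each other. The log2 fold change was -0.67 in knockdown (SE 0.09, edgeR adjusted p = 2.8e-05) and -0.83 in PRGL493 cells (SE 0.09, edgeR adjusted p = 1.9e-06). Between knockdown and PRGL493 cells the log2 difference was 0.16 (95% interval -0.03 to 0.35, edgeR adjusted p = 0.15).

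In knockdown against control, 9 of 10 genes were called lower and none higher (adjusted p below 0.05), where 15.3% of the 14135 genes tested were called lower, 14.7% higher and 30.1% in either direction. The libraries of the groups did not overlap for 10 of 10 genes, nor for 42.0% of all genes. With scaling by library totals alone the calls over all genes split differently, 59.8% of them higher in knockdown against 49.0% with TMM. IL6 and IL1B were at least 2-fold lower, as were 1.66% of genes, and the members' median log2 fold change was -0.57 (0.00096 over all genes). In PRGL493 against control, 9 of 10 were lower and none higher, where 20.4% of genes were called lower, 21.4% higher and 41.8% in either direction. Groups did not overlap for 9 of 10 members and for 57.2% of all genes. At least 2-fold lower were IL1A, IL1B, IL6, IL11, IL24 and CSF2, 6 of 10 (3.19% of genes), and the members' median was -1.20 (0.0094 over all genes).

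The comparison of knockdown with PRGL493 takes no control level into its fold change. All 9 libraries still entered the filter, the scaling and the shared estimate of spread. Here 5 genes were higher in knockdown (IL1A, IL11, IL24, CSF2 and IL1RAP) where 24.4% of genes were called higher. LIF and IL6ST were lower, 2 of 10, where 26.0% of genes were called lower. IL1A, IL11 and IL24 were at least 2-fold higher, 3 of 10, as were 3.17% of genes, and the members' median was 0.29 (-0.0089 over all genes). The share called in either direction, 7 of 10, stood beside 50.4% of all genes, and groups did not overlap for 8 of 10 members and for 56.0% of all genes. Without knockdown replicate 2 the counts were 9 lower in knockdown, 9 lower in PRGL493, and 5 higher with 3 lower between them, IL6 being the added gene. The measurement is of RNA in bulk, so fewer cells making a cytokine and less of its RNA per cell cannot be told apart.

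**Figure D2:**
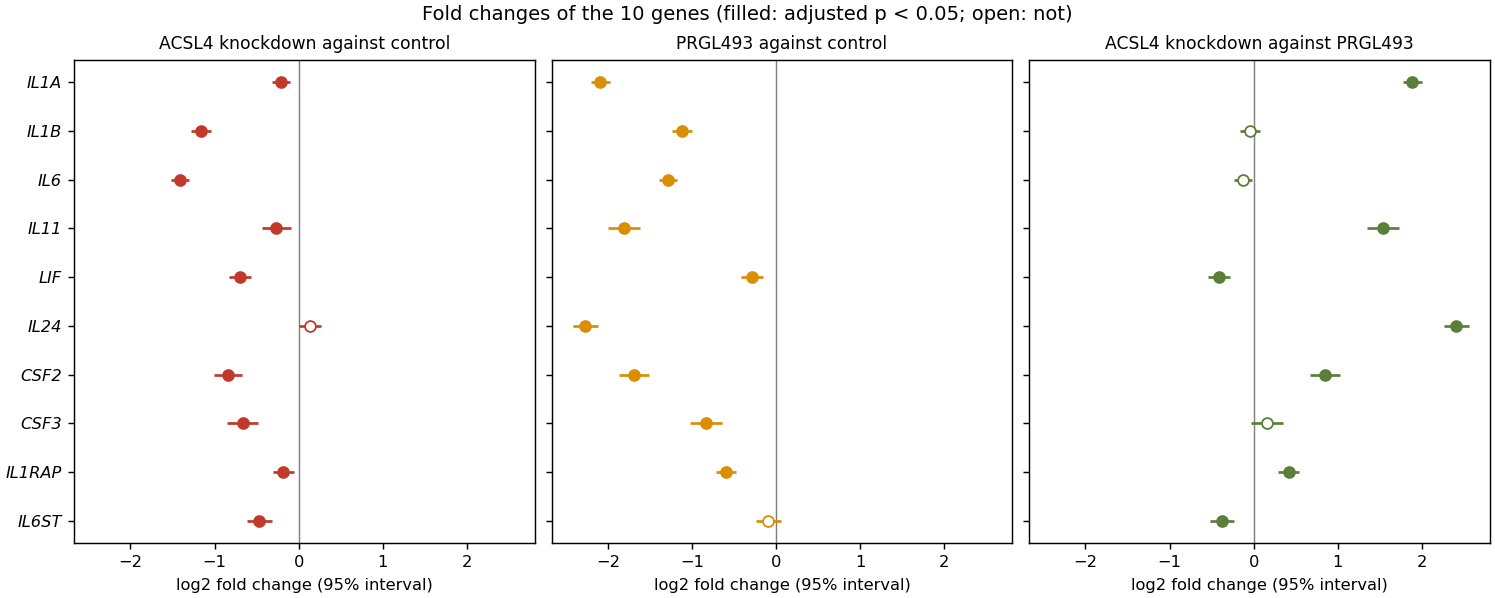
Log2 fold change of each gene (x axis, with 95% confidence intervals) in the 3 comparisons named in the panel titles. IL6 and IL1B lie close together under both treatments, while IL24, IL1A and IL11 reach -2.27, -2.09 and -1.81 in PRGL493 cells.

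Added together, the 8 cytokines reached 695, 766 and 702 CPM in knockdown cells, 395, 389.7 and 406 CPM in PRGL493 cells and 1092, 1115 and 1094 CPM in control cells. The means were 721 ± 39.0 CPM, 397 ± 8.12 CPM and 1100.3 ± 12.7 CPM in that order of groups (SD, n = 3 each). The summed RNA of these 8 genes was thus lowest in PRGL493 cells, and no group overlapped another. IL1A had the largest difference in CPM between knockdown and PRGL493 cells (means of 341 and 92.4 CPM). LIF was higher in PRGL493 cells, and IL1B, IL6 and CSF3 did not pass the test between these groups. The sum leaves out other cytokines of the line, among them CSF1 and IL18, given below.

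The make-up of the cytokine RNA differed too, which levels per kilobase of merged exon show (CPM per kb, mean ± SD, n = 3). In knockdown cells IL1A led at 160.5 ± 7.97, followed by IL6ST at 75.6 ± 9.09 and CSF2 at 67.4 ± 10.02, whose libraries overlapped. IL6 at 56.0 ± 1.85, IL1B at 46.8 ± 2.75 and IL24 at 37.9 ± 3.18 came next, and LIF (11.7), IL11 (10.3), IL1RAP (9.84) and CSF3 (4.77) were low, with IL11 and IL1RAP overlapping. In PRGL493 cells IL6ST led at 98.1 ± 3.02, then IL6 at 61.0 ± 2.47, IL1B at 48.2 ± 1.93, IL1A at 43.5 ± 0.951 and CSF2 at 37.3 ± 1.04. LIF (15.6) stood above IL1RAP (7.38) and IL24 (7.13), which overlapped, and CSF3 (4.26) and IL11 (3.54) were last. In control cells IL1A at 185 ± 7.05 was ahead of IL6 at 148.5 ± 2.15, CSF2 at 120.6 ± 3.10, and IL1B and IL6ST, both at 104.6 and overlapping. IL24 (34.5), LIF (19.0), IL11 (12.4), IL1RAP (11.2) and CSF3 (7.58) followed without overlap. Per length, IL1A thus headed the order in knockdown and control cells and stood behind IL6ST, IL6 and IL1B in PRGL493 cells, and IL11 was last only there. This order depends on the lengths used. In plain CPM IL6ST led in every group (means of 686 CPM in knockdown, 890 CPM in PRGL493 and 950 CPM in control cells). By that measure CSF3 was last in PRGL493 cells as well (7.54 CPM against 8.39 CPM for IL11).

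Ratios of length-scaled levels within a library do not depend on how libraries are scaled. IL1A over IL1B was 3.55, 3.39 and 3.35 in knockdown cells, 0.880, 0.928 and 0.900 in PRGL493 cells and 1.70, 1.73 and 1.89 in control cells. Scaled for length, the alpha form thus outweighed the beta form except under PRGL493. That exception depends on the lengths used. In plain CPM IL1A exceeded IL1B in PRGL493 cells too (91.9, 90.6 and 94.6 CPM against 80.2, 74.99 and 80.7 CPM). IL24 over IL6 averaged 0.677 ± 0.0344 in knockdown cells, 0.117 ± 0.00495 in PRGL493 cells and 0.232 ± 0.0027 in control cells. LIF over IL6 averaged 0.209 ± 0.0102 in knockdown cells, 0.256 ± 0.0211 in PRGL493 cells and 0.128 ± 0.00659 in control cells, higher in both treated groups. The IL11 to LIF ratio averaged 0.882 ± 0.0822 in knockdown cells, 0.228 ± 0.0294 in PRGL493 cells and 0.653 ± 0.0239 in control cells. For CSF2 over CSF3 the means were 14.1 ± 1.34 in knockdown cells, 8.76 ± 0.295 in PRGL493 cells and 15.9 ± 0.863 in control cells, and the knockdown and control libraries overlapped. Of these ratios only that of CSF2 to CSF3 had overlapping groups, in that pair. An exact permutation test of 3 libraries against 3 cannot go below p = 0.1, so no p is given for single ratios.

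**Figure D3:**
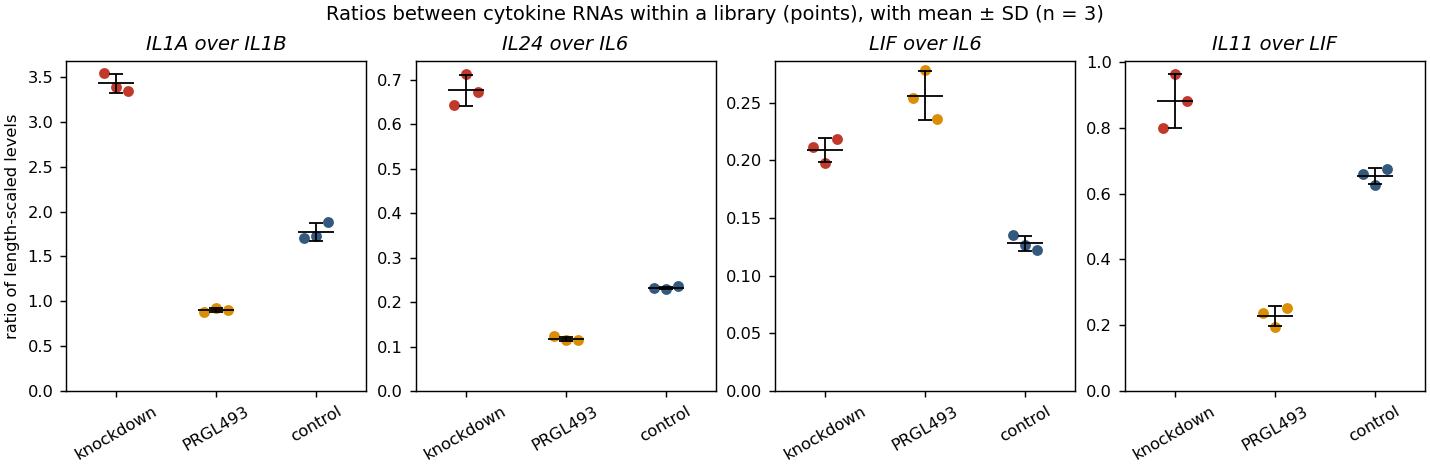
Ratio of length-scaled levels of a pair of cytokine RNAs within each library (y axes, linear, starting at 0; points are libraries, bars mean ± SD, n = 3) in knockdown, PRGL493 and control cells. IL1A over IL1B is highest in knockdown cells (mean 3.43), lowest in PRGL493 cells (0.903) and 1.77 in control cells.

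The genes whose profile over the 9 libraries was most like each cytokine's were found by the root mean square difference of centred log2 CPM, among 11072 genes whose log2 CPM averaged 2 or more. IL1B was nearest to MMP1, a collagenase (0.07), and HBEGF, an EGF receptor ligand (0.08). HBEGF was also nearest to IL6 (0.09), followed by the prostaglandin receptor PTGER4 (0.10) and IL1B itself (0.11). IL1A lay nearest to CD22 (0.07), the TGF-beta relative GDF15 (0.10) and HKDC1 (0.12). IL11 lay nearest to IGFBP1 (0.10), KRT81 (0.13) and HKDC1 (0.14). IL24 lay nearest to SERPINA3 (0.10), tenascin C, TNC (0.20), and IL1A (0.22). The neighbours of LIF were MOCS1 (0.06), ROBO4 and AMOTL2 (0.07 each). Those of CSF3 were MAFF (0.08), CRISPLD2 and THBD (0.09 each), and those of CSF2, more distant, were SNHG3 (0.15), POLR3G (0.19) and CXCL3 (0.20). The receptor subunits, with the flattest profiles, were near NOC3L, NT5E and ITGA6 for IL1RAP (0.04, 0.04 and 0.05) and near GCC2, SHTN1 and GTF2H2B for IL6ST (0.04, 0.05 and 0.05). Each distance is in log2 units, to be read against the gene's own spread, 0.94 for IL1A, 0.54 for IL1B, 0.64 for IL6, 0.80 for IL11 and 1.11 for IL24. That spread was 0.70 for CSF2, 0.36 for CSF3, 0.29 for LIF, 0.26 for IL1RAP and 0.22 for IL6ST.

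Other genes of these pathways were read from 6 lists, which hold none of the 10 members. Beside their counts stand the shares of all tested genes called, 14.7% higher and 15.3% lower in knockdown, and 21.4% higher and 20.4% lower in PRGL493 cells. Of 19 tested genes of the IL1 system (28 listed), 3 rose and 5 fell in knockdown (median log2 fold change 0.05) and 5 rose and 5 fell in PRGL493 cells (median 0.11). Called in either direction were 8 of 19 in knockdown and 10 of 19 in PRGL493 cells, against 30.1% and 41.8% of all genes. IL1R1, the signalling receptor of IL1A and IL1B, rose in both: it averaged 37.9 CPM in knockdown cells, 37.3 CPM in PRGL493 cells and 29.8 CPM in control cells (log2 fold changes 0.35 and 0.33, edgeR adjusted p = 0.0010 for each). In knockdown the kinase IRAK4 fell (8.92 CPM against 11.4 CPM in control, log2 fold change -0.35, edgeR adjusted p = 0.0095). So did the adaptors TAB3 (77.9 against 105 CPM in control, -0.43, edgeR adjusted p = 0.0010) and TAB2 (146 against 168 CPM in control, -0.20, edgeR adjusted p = 0.013), the last not without control replicate 2 (edgeR adjusted p = 0.057). In PRGL493 cells these 3 genes did not pass the test (log2 fold changes 0.19, 0.18 and 0.00, edgeR adjusted p = 0.099, 0.086 and 0.99). In PRGL493 cells the adaptor MYD88 rose (63.1 against 45.1 CPM in control, 0.48, edgeR adjusted p = 2.3e-06). The kinase IRAK1 fell (135 against 179 CPM in control, -0.41, edgeR adjusted p = 1.4e-05), and CASP1, the protease that cuts the IL1B precursor, fell at a low level (1.74 against 3.66 CPM in control, -1.07, edgeR adjusted p = 0.00013). In knockdown MYD88 did not pass the test (-0.12, edgeR adjusted p = 0.091), while IRAK1 and CASP1 were called lower there as well (-0.18 and -0.55, edgeR adjusted p = 0.019 and 0.018). These last calls were lost for IRAK1 without control replicate 1 or 2 or knockdown replicate 1 (edgeR adjusted p = 0.089, 0.070 and 0.052) and for CASP1 without control replicate 3 or knockdown replicate 1 (edgeR adjusted p = 0.12 and 0.070). The IRAK1 call was also lost with upper-quartile scaling (edgeR adjusted p = 0.053).

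Of 23 tested genes of the IL6-type system (28 listed), 2 rose and 6 fell in knockdown (median -0.05), and 3 rose and 8 fell in PRGL493 cells (median 0.0019). Called in either direction were 8 of 23 and 11 of 23, against 30.1% and 41.8% of all genes. LIFR, the receptor that pairs with gp130 for LIF, averaged 79.2 CPM in knockdown cells, 76.0 CPM in PRGL493 cells and 96.8 CPM in control cells, and fell under both (log2 fold changes -0.29 and -0.35, edgeR adjusted p = 0.0076 and 0.0012). In knockdown the signal transducers STAT5B (-0.33, edgeR adjusted p = 0.00074) and STAT3 (-0.22, edgeR adjusted p = 0.0046) fell slightly on the log2 scale. In PRGL493 cells STAT5B did not pass the test (0.15, edgeR adjusted p = 0.055) and STAT3 rose slightly (0.15, edgeR adjusted p = 0.024). This STAT3 call was lost without any 1 of the control libraries or without PRGL493 replicate 1 or 2 (edgeR adjusted p between 0.058 and 0.14). It was also lost with upper-quartile scaling, and with the length trend removed, alone or with a replicate block (edgeR adjusted p = 0.055, 0.069 and 0.081). In PRGL493 cells IL6R, the receptor chain for IL6, averaged 0.656 CPM against 2.02 CPM in control (log2 fold change -1.62, edgeR adjusted p = 2.3e-05). IL27RA averaged 5.71 against 10.2 CPM in control (-0.83, edgeR adjusted p = 6.9e-06) and the feedback inhibitor SOCS2 2.499 against 4.15 CPM in control (-0.72, edgeR adjusted p = 0.0010). In knockdown IL6R fell too (1.18 against 2.02 CPM in control, -0.77, edgeR adjusted p = 0.0081). IL27RA did not pass the test (-0.15, edgeR adjusted p = 0.25), and SOCS2 was called higher (0.48, edgeR adjusted p = 0.014), a call lost without control replicate 2 or knockdown replicate 3 (edgeR adjusted p = 0.051 and 0.063).

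Among relatives of IL24, 3 of 10 listed genes were tested. IL20RB, a chain of its receptors, averaged 6.06 CPM in knockdown cells, 1.02 CPM in PRGL493 cells and 4.70 CPM in control cells. It fell in PRGL493 cells (log2 fold change -2.22, SE 0.16, edgeR adjusted p = 1.6e-08). Its rise in knockdown (0.36, SE 0.13, edgeR adjusted p = 0.039) was lost in 8 of 20 alternatives, among them leaving out control replicate 1, 2 or 3 (edgeR adjusted p = 0.15, 0.054 and 0.091) or knockdown replicate 2 or 3 (edgeR adjusted p = 0.081 and 0.12).

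Of 5 tested colony-stimulating factor genes (11 listed), none rose and 2 fell in knockdown, and 1 rose and 2 fell in PRGL493 cells. CSF1, the macrophage growth factor, averaged 530.3 CPM in knockdown cells against 663 CPM in control cells (log2 fold change -0.32, edgeR adjusted p = 8.5e-05), and did not pass the test in PRGL493 cells (-0.01, edgeR adjusted p = 0.93). Its receptor CSF1R averaged 5.18 CPM in knockdown cells, 2.92 CPM in PRGL493 cells and 6.65 CPM in control cells, and fell in PRGL493 cells (-1.17, edgeR adjusted p = 3.7e-06). The fall of CSF1R in knockdown (-0.36, edgeR adjusted p = 0.039) was lost in 8 of 20 alternatives, among them leaving out control replicate 1, 2 or 3 (edgeR adjusted p = 0.085, 0.13 and 0.077) or knockdown replicate 1 (edgeR adjusted p = 0.12). In PRGL493 cells KITLG rose (12.3 against 8.79 CPM in control, 0.48, edgeR adjusted p = 0.0013). CSF2RA, a receptor chain for CSF2, fell slightly (61.2 against 70.6 CPM in control, -0.21, edgeR adjusted p = 0.014), a call lost without control replicate 2 (edgeR adjusted p = 0.094) or without PRGL493 replicate 2 (edgeR adjusted p = 0.053). Neither KITLG nor CSF2RA passed the test in knockdown (0.11 and 0.04, edgeR adjusted p = 0.45 and 0.67). CSF1R also stands in the macrophage marker list, whose sums are given above.

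Of 15 listed and tested genes of cytokine mRNA stability, 1 rose and 6 fell in knockdown (median -0.21), and 3 rose and 3 fell in PRGL493 cells (median 0.02). All tested genes were called lower in 15.3% and 20.4% of cases, so the count in PRGL493 cells was near the background. ZFP36, also called tristetraprolin, which binds AU-rich elements and speeds decay of cytokine messages, averaged 28.5 CPM in knockdown cells, 49.97 CPM in PRGL493 cells and 121 CPM in control cells (log2 fold changes -2.09 and -1.27, edgeR adjusted p = 1.1e-13 and 7.5e-11). ZC3H12A, the RNase Regnase-1, which cuts IL6 mRNA among others, averaged 66.4 CPM in knockdown cells, 84.2 CPM in PRGL493 cells and 135 CPM in control cells (-1.02 and -0.68, edgeR adjusted p = 3.0e-10 and 4.4e-08). ZFP36L1, a relative of ZFP36, averaged 316 CPM in knockdown cells, 447 CPM in PRGL493 cells and 558 CPM in control cells (-0.82 and -0.32, edgeR adjusted p = 5.5e-08 and 0.00068). ZFP36L2 fell in knockdown (-0.36, edgeR adjusted p = 0.00058) and did not pass the test in PRGL493 cells (-0.12, edgeR adjusted p = 0.15). TIA1 rose in knockdown (0.34, edgeR adjusted p = 0.035) and in PRGL493 cells (20.04 against 15.3 CPM in control, 0.38, edgeR adjusted p = 0.014). Its call in knockdown was lost without any 1 of the control libraries, knockdown replicate 1 or PRGL493 replicate 3 (edgeR adjusted p between 0.053 and 0.14). That call was also lost with limma-voom (limma-voom adjusted p = 0.054). The same held with only the 2 groups fitted and with a replicate block (edgeR adjusted p = 0.067 and 0.055). The call in PRGL493 cells was lost without control replicate 1 or 2 or PRGL493 replicate 2 or 3 (edgeR adjusted p between 0.051 and 0.064).

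The last list holds 25 genes, mostly transcription factors known to act on cytokine promoters. With them stand cofactors such as NFKBIZ and BCL3, and the NF-kB inhibitor NFKBIA. Of the 25, 2 rose and 15 fell in knockdown (median -0.30), and 7 rose and 13 fell in PRGL493 cells (median -0.20). Of all genes, 15.3% and 20.4% were called lower and 14.7% and 21.4% higher. The NF-kB cofactor NFKBIZ, known as an inducer of IL6, averaged 50.2 CPM in knockdown cells, 95.3 CPM in PRGL493 cells and 312 CPM in control cells (log2 fold changes -2.63 and -1.71, edgeR adjusted p = 6.0e-16 and 1.4e-13). ATF3 averaged 29.9 CPM in knockdown cells, 51.3 CPM in PRGL493 cells and 207 CPM in control cells (-2.80 and -2.02, edgeR adjusted p = 3.9e-15 and 2.8e-13). The AP-1 subunit FOS averaged 45.2 CPM in knockdown cells, 229 CPM in PRGL493 cells and 318 CPM in control cells (-2.82 and -0.47, edgeR adjusted p = 7.5e-16 and 2.8e-06). JUNB averaged 109, 166 and 267 CPM in the same groups (-1.29 and -0.68, edgeR adjusted p = 1.6e-10 and 3.3e-07). ETS2 averaged 92.8 CPM in knockdown cells, 65.7 CPM in PRGL493 cells and 105 CPM in control cells (-0.18 and -0.68, edgeR adjusted p = 0.012 and 2.7e-08), the knockdown call being lost without control replicate 1 (edgeR adjusted p = 0.060). CEBPG fell in PRGL493 cells (67.9 against 107 CPM in control, -0.65, edgeR adjusted p = 2.6e-07) and did not pass the test in knockdown (-0.10, edgeR adjusted p = 0.19). The genes with levels in this paragraph up to here all fell in PRGL493 cells, so the 7 that rose are not among them. As an example picked after its values were seen, the NF-kB subunit RELA lay higher there. It stood at 164, 164 and 151 CPM in PRGL493 cells and at 129, 122 and 131 CPM in control cells. Without knockdown replicate 2 the knockdown counts were 1 higher and 5 lower in the IL1 system and 1 and 6 in the IL6-type system. They were 2 and 7 in mRNA stability and 2 and 15 in the promoter factor list, and no IL24 relative was called. FOSB, a further AP-1 subunit, named here after its values were seen because it lies lowest in the plot of pathway lists, averaged 2.38 CPM in knockdown cells, 21.4 CPM in PRGL493 cells and 200.8 CPM in control cells (log2 fold changes -6.38 and -3.24, edgeR adjusted p = 1.4e-07 and 1.5e-06).

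**Figure D4:**
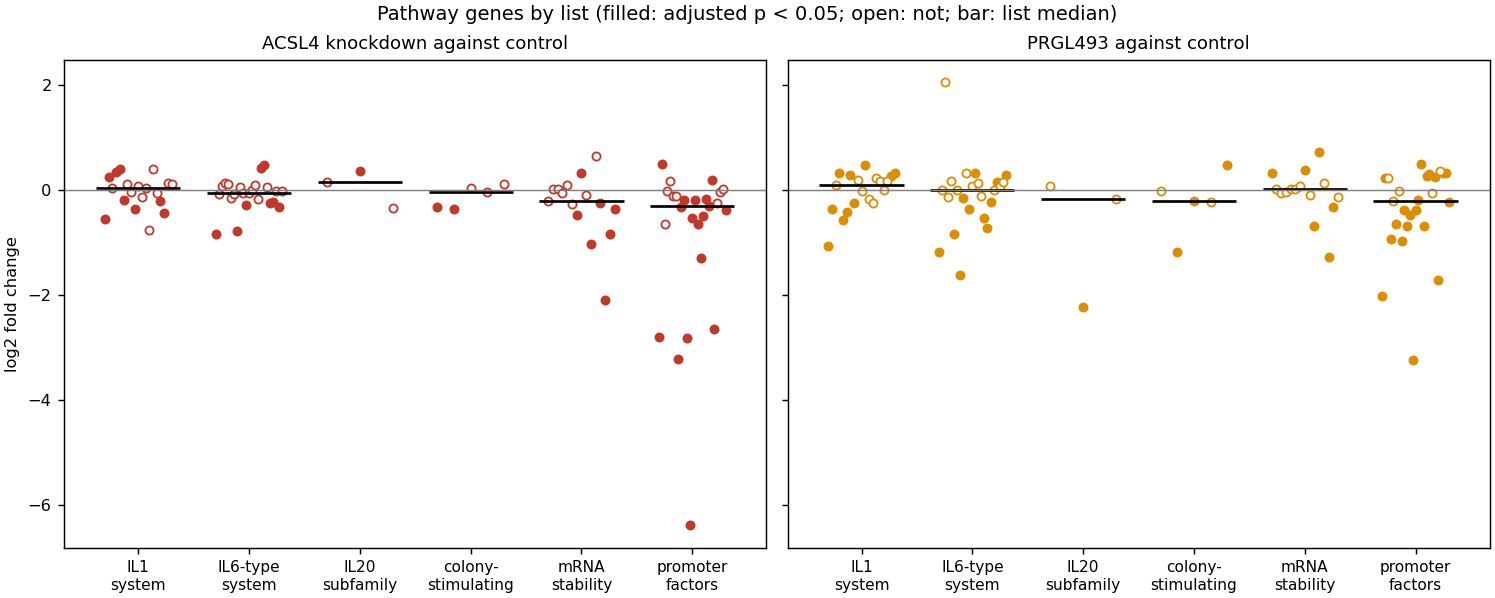
Log2 fold change (y axis) of every tested gene of the 6 pathway lists (points, filled where called; bars are list medians) in knockdown against control and in PRGL493 against control. List medians stay between -0.30 and 0.17 in knockdown and between -0.21 and 0.11 in PRGL493 cells. In knockdown, single genes of the mRNA stability and promoter factor lists lie far lower (down to -2.09 and -6.38). In PRGL493 cells the lowest genes are at -3.24 (promoter factors), -2.22 (IL20 subfamily), -1.62 (IL6-type system) and -1.27 (mRNA stability).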

How the data were processed

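The deposited table holds estimated counts of reads per gene, not scaled for depth, which the authors made with genome build GRCh38, according to the submitters' processing notes. What aligner, counter, annotation and strand setting they used is not given in the sources used here. Of its values 10.5% were not whole, so counts were rounded, although the design had assumed whole counts. A spreadsheet had turned 28 symbols into dates (0.236% to 0.258% of counts), and these rows were not named. Genes passing edgeR's filterByExpr (14135) were TMM-scaled and fitted to all 9 libraries with glmQLFit (edgeR 4.0.16, R 4.3.3, robust, group as the only term, 6 residual degrees of freedom), which was tested on simulated data. Benjamini-Hochberg adjustment covered all genes of a comparison, and an adjusted p below 0.05 was called. Lengths are merged exons of GENCODE release 29, and coordinates are from that annotation unless RefSeq is named. The text names ACSL4, the 10 members, up to 4 called genes of each pathway list per treatment with the smallest adjusted p, and 3 nearest profiles per member; of the genes this rule takes, 2 are not reported here. Members and lists were chosen with earlier results of these data known. Alternatives covered scaling, filters, DESeq2 1.42.0, limma-voom (limma 3.58.1), fewer groups, a replicate block, the length trend and leaving out each library. Intervals are model intervals over batches.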

Additional observations from a re-analysis of the deposited data

How the results depend on the processing

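Each log2 fold change was recomputed under 20 alternatives, 9 of which leave out a library, and no count of called genes over the whole table, or of called members, moved by more than 1.5 times. Small counts in the pathway lists did: without knockdown replicate 2 the genes called higher in knockdown went down to 1 in the IL1 system (3 with all libraries), 1 in the IL6-type system (2) and 0 among IL24 relatives (1). Leaving out single libraries gave 3074 to 4770 called genes in knockdown against control, 4769 to 7132 in PRGL493 against control and 5941 to 7303 in knockdown against PRGL493, with 8 to 9, 9 and 7 to 8 members called. Deviations of same-numbered libraries correlated above 0.1 in 2 of 9 pairs (range -0.08 to 0.15), so the numbers were not taken to pair libraries. Each control library did correlate best with the knockdown library of its own number (0.11, 0.15 and 0.062), a hint from the data and not from the design, and no library matched its own number best in both other groups. With a replicate block 3879, 5635 and 6857 genes and 9, 9 and 7 members were called. Signs turned only for values near 0. For ACSL4 in PRGL493 against control the log2 fold change was 0.010 with library totals alone and ran from -0.040 to 0.031 when single libraries were left out, above 0 without control replicate 3 or PRGL493 replicate 1. For IL1B in knockdown against PRGL493 it was 0.013 with upper-quartile scaling and ran from -0.091 to 0.00090 when single libraries were left out, above 0 without knockdown replicate 1. The knockdown call of IL1RAP also missed the threshold with upper-quartile scaling (edgeR adjusted p = 0.053), library totals alone (0.067) and the block with the length trend removed (0.19). With that last setting the knockdown to PRGL493 differences of IL6 and IL1B were called (edgeR adjusted p = 0.00074 and 0.016). In PRGL493 against control IL6ST was called with the length trend removed (edgeR adjusted p = 0.041). The cause of these shifts was not tested. The lowest count of a member in a library was 211, where counting error is largest.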

Other observations

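Several genes of the pathway lists lay on opposite sides of control in the treated groups, and those given here are examples. They were chosen after their values were seen and for that pattern, so their levels and differences are a description, with no test. SOCS2 and SOCS1, feedback inhibitors of JAK signalling, averaged 5.80 and 7.71 CPM in knockdown cells, 2.499 and 3.94 CPM in PRGL493 cells and 4.15 and 5.73 CPM in control cells. IL1RN, the secreted antagonist of IL1A and IL1B, averaged 4.86 CPM in knockdown cells, 2.48 CPM in PRGL493 cells and 3.64 CPM in control cells. IL18, an IL1 family cytokine, averaged 15.3 CPM in knockdown cells, 9.99 CPM in PRGL493 cells and 12.8 CPM in control cells. Between knockdown and PRGL493 cells the log2 difference was 1.20 for SOCS2, 0.96 for SOCS1, 0.99 for IL1RN, 0.61 for IL18 and 2.58 for IL20RB, whose levels are given above. The AP-1 subunit JUN ran the other way, with 264 CPM in knockdown cells, 577 CPM in PRGL493 cells and 410.1 CPM in control cells (log2 difference between knockdown and PRGL493 cells -1.13). JUND and NFKB1 were among others on JUN's side. JUND stood at 123 to 127 CPM in knockdown cells, 205 to 218 CPM in PRGL493 cells and 161 to 189 CPM in control cells. NFKB1 stood at 44.9 to 49.8, 63.9 to 66.7 and 50.4 to 55.3 CPM in the same groups. How many listed genes ran each way was not counted.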
